A study of Mus musculus with 6 samples.

Results

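The genes described here are 10 components of the muscle atrophy programme: the muscle RING ligases Trim63 (MuRF1), Trim55 (MuRF2) and Trim54 (MuRF3), the F-box proteins Fbxo32 (atrogin-1), Fbxo30 and Fbxo31, the transcription factors Foxo1, Foxo3 and Foxo4, and the growth inhibitor Mstn (myostatin). They were taken by gene symbol from a table of 18181 genes, and all 10 had a row there. The table gives messenger RNA of heart ventricle from mice of strain C57BL6, with no other genotype or treatment named. The aged group was 24 to 26 months old and the young group 6 to 8 weeks old, with 3 libraries each. Neither the sex nor whether every sample is a mouse of its own is given in the labels, so p-values here reflect spread among the 6 samples that may be technical. Levels are in FPKM, fragment counts scaled by transcript length and by the mapped fragments of the library, so levels of different genes can be set side by side per length.

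Muscle loses mass when protein breakdown outpaces synthesis, and much of that breakdown runs through ubiquitin ligases that mark sarcomere and translation proteins for the proteasome. Trim63 and Fbxo32 are the classic markers of this state in skeletal muscle, and both also act in heart, where Trim63 marks troponin I and myosin heavy chain. FoxO factors switch on Fbxo32, Trim63 and autophagy genes; insulin and IGF1 act through the kinase AKT to phosphorylate FoxO and keep it in the cytoplasm, while myostatin signals through activin receptors and SMAD proteins and restrains muscle growth.

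The 300-base promoter windows of Trim63 and Trim54 are shown because these paralogues moved in opposite directions. The RefSeq table of GRCm38.p6, which matched 7 of the 10 genes, gives 250 bases before and 50 after each start; the windows are chr4:134314870-134315169 and chr5:31116362-31116661, both on the plus strand. Capitals mark the FoxO core GTAAACA and the glucocorticoid receptor half-site AGAACA, on either strand.
Trim63: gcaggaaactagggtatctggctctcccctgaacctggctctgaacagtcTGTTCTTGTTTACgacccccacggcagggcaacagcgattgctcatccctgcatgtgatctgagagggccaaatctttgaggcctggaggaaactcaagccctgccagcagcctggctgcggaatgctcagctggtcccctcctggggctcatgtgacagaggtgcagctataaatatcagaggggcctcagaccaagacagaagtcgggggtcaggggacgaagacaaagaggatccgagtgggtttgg
Trim54: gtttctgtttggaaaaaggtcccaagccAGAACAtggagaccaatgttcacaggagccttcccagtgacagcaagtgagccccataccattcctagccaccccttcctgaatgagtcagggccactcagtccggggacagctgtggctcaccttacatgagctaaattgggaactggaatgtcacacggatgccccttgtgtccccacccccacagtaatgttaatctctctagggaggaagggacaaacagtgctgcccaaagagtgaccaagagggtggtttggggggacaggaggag
In Trim63 the FoxO core lies on the minus strand at bases -194 to -188 from the start, and directly beside it, at -200 to -195 on the same strand, lies the half-site, with no overlap. Trim54 has the half-site alone, at -222 to -217. The FoxO core is in 3.65% of 32851 promoter windows of this length and the half-site, a motif added after the windows had been read, in 19% of them. The glucocorticoid receptor palindrome, which is the half-site and its reverse complement TGTTCT around any 3 bases (in 0.00913% of windows), the SMAD palindrome GTCTAGAC (0.213%) and the E-box CACGTG (7.15%), searched on both strands, were in none of the 7 windows, and the FoxO core was in that of Trim63 alone. Only exact letters were searched. In Trim63 the stretch tgaacagtcTGTTCT, which ends in the marked half-site, differs from the glucocorticoid receptor palindrome in its first base alone. A match describes letters in the sequence and does not show binding. Trim55, Fbxo32 and Foxo4 are the genes not matched.

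The libraries were those of heart muscle by their markers. Tnnt2, cardiac troponin T, was at 7932, 8015 and 7349 FPKM in the aged libraries and 6314, 6372 and 5987 in the young. Myh6, the main myosin heavy chain of adult mouse heart, was at 5614 to 6065 FPKM in aged and 5900 to 6919 FPKM in young. Neither gene sets ventricle apart from atrium. The atrial peptide Nppa was at 38.9, 36.3 and 137 FPKM in aged libraries, against 102, 232 and 159 in young. Aged replicates 1 and 2 stood apart: Krt13, a keratin of stratified epithelium, had 152 and 250.3 FPKM in this pair but is listed at 0 for aged replicate 3 and all young libraries. Listed epithelial markers summed to 91.1 to 628 FPKM in aged libraries, against 103 to 113 in young, with 1 of 12 tested higher and 0 lower by limma (11 higher and 0 lower at an unadjusted p under 0.05). For several members and lists, results are therefore given also with aged replicate 3 alone, whose spread is then taken to be that of the young libraries. That library also lay apart from the other aged ones. On the first principal component, the main axis of spread over the tested genes, it was at -11.3, against -26.4 and -28.6. The young libraries were at 17.8 to 24.4 there. On the second component it was at -22.9, and every other library at 0.532 to 10.9. What part the epithelial transcripts have in the results was not tested otherwise. Low values were taken to fall in steps of single fragments. By library and assumed fragment length (150 to 250 bases), 54.5% to 66.2% of those examined lay near a whole step. The share that evenly spread values would give was not computed. The step was estimated from these same values, which by construction places some near a whole step, so the depths are rough. It puts each library at about 8.65 to 12.4 M fragments (M is 1e+06), depending on the length assumed. Aged replicate 3 was the shallowest under each of these lengths. Among the 11860 genes averaging 1 FPKM or more, 1105 (9.32%) were higher and 2026 (17.1%) lower in aged ventricle by limma at a Benjamini-Hochberg adjusted p under 0.05 over all tested genes, a split that was 943 to 2420 on TPM and 1483 to 1507 after scaling by median ratios.

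Trim54 was the member that moved most: its messenger RNA was about 2 times as abundant in aged as in young ventricle, while Trim63 fell 1.23-fold and was overtaken by it. Fbxo31 rose 1.16-fold and Foxo4 1.18-fold. Fbxo32, Fbxo30, Trim55, Foxo1 and Foxo3 did not pass the test, and Mstn was close to 0 at both ages. In bulk tissue such as this, fewer cells of a type and less RNA per cell cannot be told apart. In counts, 3 of the 9 tested members were higher (9.32% of all tested genes were) and 1 was lower (17.1% of all tested genes were); only the calls of Trim54 and Trim63 held in each of 18 other settings of the analysis.

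**Figure D1:**
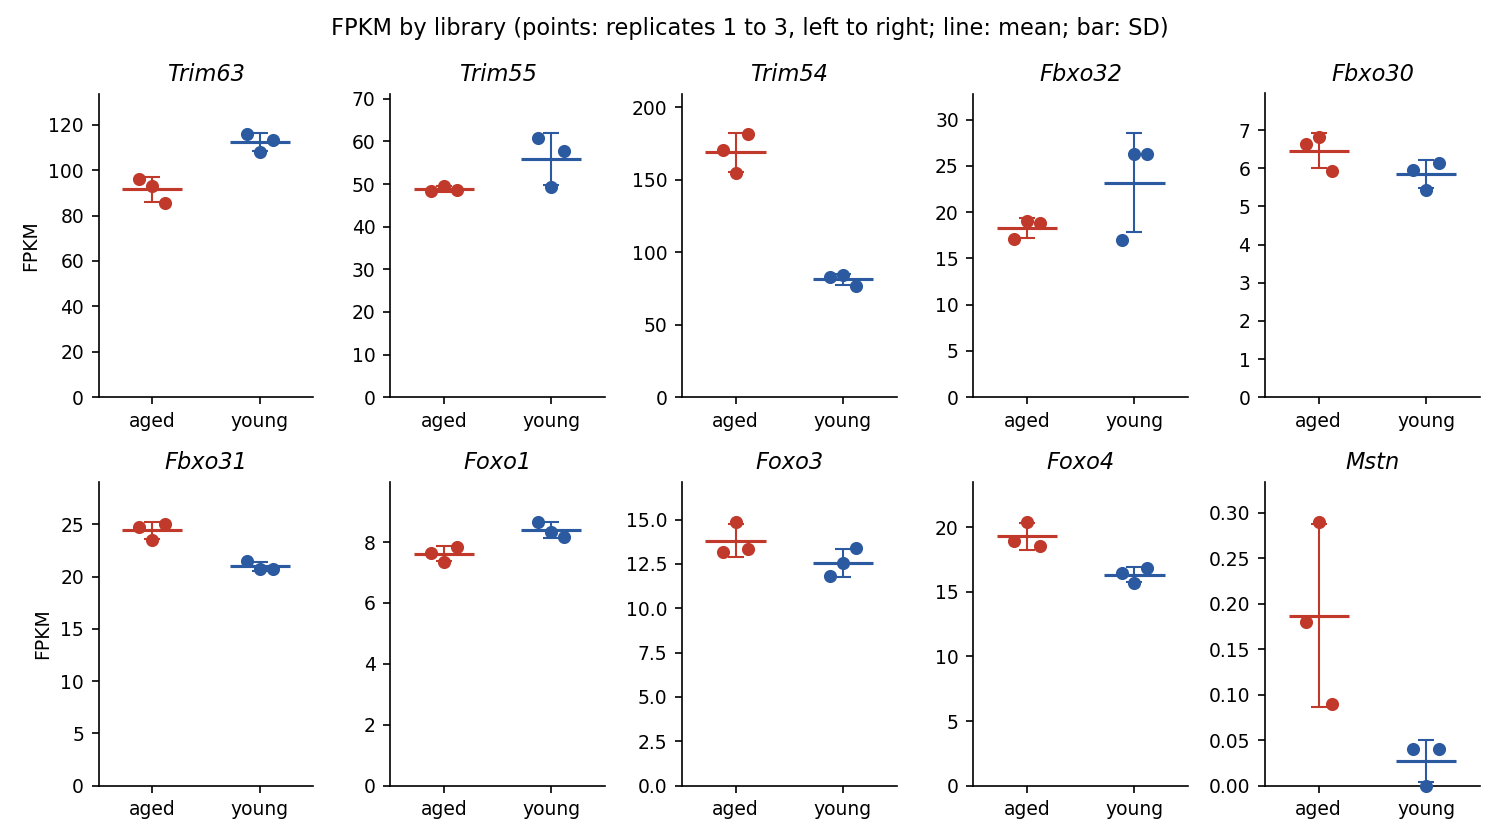
FPKM of the 10 genes in aged (left, red) and young (right, blue) ventricle; points are the 3 libraries, lines the mean and bars the SD, and each vertical axis starts at 0. The aged points of Trim54, at 155 to 181 FPKM, lie far above the young ones at 76.9 to 84.2, whereas for Fbxo32 young replicate 1, at 17.0 FPKM, lies just below the aged libraries and far from the other young ones.

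Trim54 encodes MuRF3, a RING ligase that binds microtubules and the Z-disc of striated muscle (NCBI gene 58522; chromosome 5, 31116612 to 31137626, GRCm38.p6). It was at 170.3, 155 and 181 FPKM in the aged libraries, against 83.0, 84.2 and 76.9 FPKM in the young. Every aged library was above every young one, and the smallest aged value was well over the largest young one. A lack of overlap between the ages, in either direction, was common, at 43% of all tested genes. Mean levels were 169 ± 13.3 FPKM in aged and 81.4 ± 3.87 FPKM in young ventricle (SD, n = 3 each), a ratio of 2.08. On log2(FPKM + 1) the difference was 1.04 (SE 0.0714, 95% interval 0.88 to 1.204, limma adjusted p = 4.16e-05). Ordered by the moderated statistic from the most positive down, it ranked 29 of 11860 tested genes. Over the 18 other settings the log2 difference stayed between 0.99 and 1.148, and aged replicate 3 had the highest level of all. Krt13 is listed at 0 in that library, and whether the epithelial transcripts bear on the Trim54 level was not tested otherwise. Exons of Trim54 overlap those of the antisense gene Gm15469, which holds 11.5% of the 100-base windows of the Trim54 transcripts in GENCODE vM21. No strand marking is stated, and Gm15469 is not among the 18181 genes given a level. How much of the Trim54 level came from reads of that overlap that belong to Gm15469 is therefore not known.

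Trim63 encodes MuRF1 (NCBI gene 433766; chromosome 4, 134315120 to 134329629). Its level was 96.3, 92.9 and 85.5 FPKM in aged libraries, against 116, 108 and 113 FPKM in young. The ages did not overlap, but the closest libraries, aged replicate 1 and young replicate 2, were not far apart. It averaged 91.6 ± 5.52 FPKM in aged and 112 ± 3.91 FPKM in young ventricle, which is 1.23-fold lower in aged (log2 difference -0.29, SE 0.063, limma adjusted p = 0.00984). With aged replicate 3 alone the log2 difference was -0.39, the farthest from 0 of all settings, and the smallest difference, -0.23, came with scaling by median ratios. Of the genes tested, those whose profile over the 6 libraries lay nearest to that of Trim63, by root-mean-square distance of centred log2(FPKM + 1), were Mark3, a polarity kinase (0.0252), Fhl2, a LIM protein of the heart sarcomere (0.0291), and Desi2 (0.031). Fhl2 was at 1349, 1266 and 1225 FPKM in aged, against 1585, 1452 and 1553 in young libraries. Mark3, Fhl2 and Desi2 were chosen for likeness over these same 6 libraries, so their lower values in aged follow from that choice.

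Trim55 encodes MuRF2, which associates with titin and microtubules (NCBI gene 381485; chromosome 3, 19644344 to 19692584). Aged libraries had 48.4, 49.6 and 48.5 FPKM, against 60.9, 49.2 and 57.7 FPKM in young ones. Young replicate 2 lay within the aged range, and the aged libraries were closer to each other than the young ones were. The log2 difference was -0.19 (95% interval -0.37 to -0.0043, adjusted p = 0.121 by limma), and without young replicate 2 it was -0.27 with an adjusted p of 0.0278.

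The ages differed in the total of the 3 ligases and in its make-up. Their summed level was 315, 297 and 315 FPKM in aged libraries, against 260, 241 and 248 FPKM in young. Trim54 made up 54.1%, 52.1% and 57.5% of that sum in the aged libraries, against 32.0%, 34.8% and 31.0% in the young, so it was the most abundant of the 3 in every aged library. Trim63 held 30.6%, 31.2% and 27.1% of the aged sums, against 44.6%, 44.8% and 45.7% of the young, where it came first. The share of Trim55 was 15.8% ± 0.758 in aged and 22.4% ± 1.72 in young ventricle. The ratio of Trim54 to Trim63 was 1.77, 1.67 and 2.12 in aged libraries, against 0.716, 0.778 and 0.679 in young; an exact two-sided permutation test of the log ratio gave p = 0.1, the smallest that 3 against 3 allows. Of 6 ratios among members tested in this way 4 gave that p, 0.15 after Benjamini-Hochberg adjustment. The ratio of Fbxo32 to Trim63, the classic pair, was 0.178, 0.205 and 0.2196 in aged libraries, against 0.147, 0.243 and 0.232 in young (exact permutation p = 1).

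**Figure D2:**
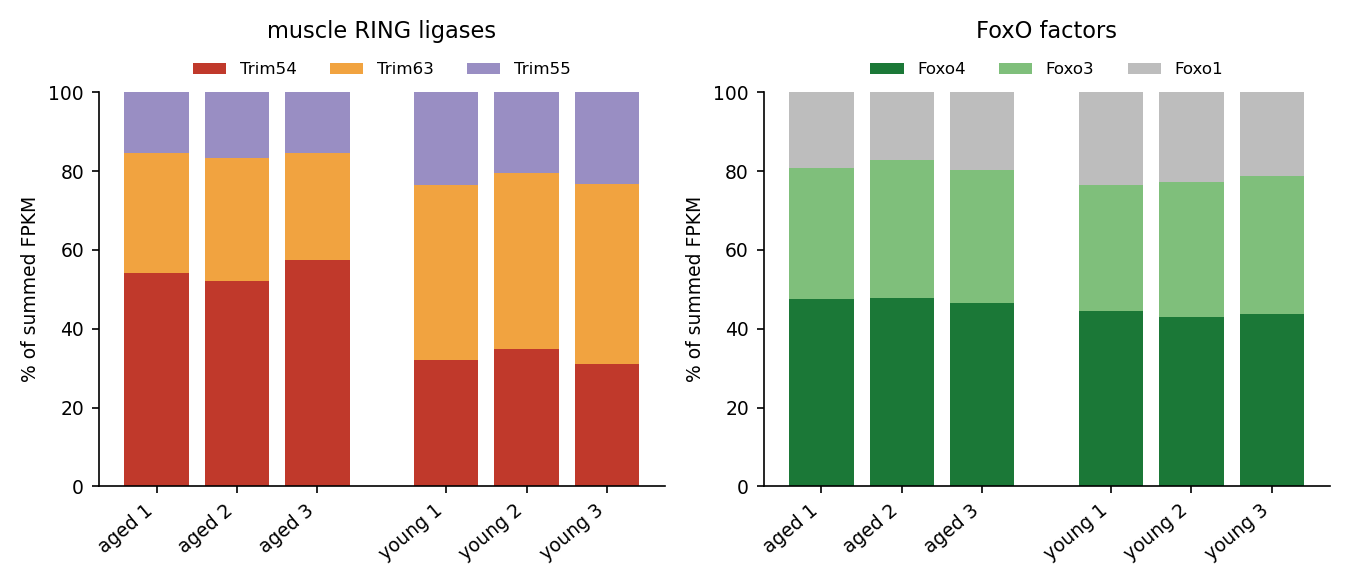
Stacked bars of the share, in % of summed FPKM, that each gene holds within the muscle RING ligases (left panel) and the FoxO factors (right panel) in each of the 6 libraries, aged before young. Trim54 fills 52.1% to 57.5% of the ligase sum in aged and 31.0% to 34.8% in young libraries, while Foxo4 fills 46.6% to 47.9% of the FoxO sum in aged and 42.9% to 44.6% in young libraries.

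The F-box members are substrate receptors of SCF ligases, in which Skp1 and Cul1 link them to the ubiquitin transfer machinery. Fbxo32, which targets eIF3f and calcineurin (NCBI gene 67731; chromosome 15, 58175879 to 58214892), was at 17.1, 19.0 and 18.8 FPKM in aged libraries, against 17.0, 26.3 and 26.3 FPKM in young. Young replicate 1 had the lowest value of all 6, and the other young libraries the highest. The log2 difference was -0.30 (SE 0.149, interval -0.64 to 0.036) and limma's adjusted p 0.169; without young replicate 1 the difference was -0.50 with an adjusted p of 0.0029, and over all 18 settings the adjusted p ran from 0.0029 to 0.499. Whether young replicate 1 or the other young libraries show the usual level cannot be told from 3 samples. Its antisense gene Gm15943 holds 1.29% of its 100-base windows. The profiles nearest to Fbxo32 were those of Rnf135 (distance 0.0577), Cchcr1 (0.0599) and Gpc6 (0.0639). They were chosen for likeness over these same 6 libraries, so their low values in young replicate 1 follow from that choice.

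Fbxo31, known as a receptor for cyclin D1 in human cells (NCBI gene 76454; chromosome 8, 121549443 to 121578864), was at 24.7, 23.5 and 25.1 FPKM in aged libraries, against 21.5, 20.7 and 20.7 FPKM in young. The aged values all exceeded the young, by a small margin: 1.16-fold between the means (log2 difference 0.21, SE 0.0605, limma adjusted p = 0.0322). The call was lost on TPM (adjusted p = 0.0831), without aged replicate 1 (0.0902) or 3 (0.086), without young replicate 2 (0.0942) or 3 (0.109), and with aged replicate 3 alone (0.131). Fbxo30, known as MUSA1, a ligase component that BMP signalling holds down in muscle (NCBI gene 71865; chromosome 10, 11281330 to 11305750), was at 6.64, 6.81 and 5.94 FPKM in aged libraries, against 5.96, 5.43 and 6.15 FPKM in young. Its ages overlapped, with a log2 difference of 0.12 and an interval of -0.07 to 0.32 (limma adjusted p = 0.322).

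The FoxO factors had small differences of both signs. Foxo4 (NCBI gene 54601; chromosome X, 101254261 to 101260873) was at 18.9, 20.4 and 18.5 FPKM in aged libraries, against 16.5, 15.7 and 16.8 FPKM in young. The ages did not overlap, and the means differed 1.18-fold (log2 difference 0.23, SE 0.0675, limma adjusted p = 0.037). This call was the least stable of the 4: it was lost in 9 of the 18 settings, among them TPM (adjusted p = 0.109), each omission of aged replicate 1 (0.0757) or 2 (0.104) or of young replicate 1 (0.0635), 2 (0.118) or 3 (0.0796), and aged replicate 3 alone (0.292). Foxo3, a main activator of Fbxo32 in muscle (NCBI gene 56484; chromosome 10, 42181845 to 42276695), was at 13.2, 14.9 and 13.4 FPKM in aged libraries, against 11.8, 12.5 and 13.4 FPKM in young. The ranges overlapped (log2 difference 0.13, interval -0.05 to 0.30, limma adjusted p = 0.267), and a correction for transcript length and GC content, chosen after seeing the data, brought the difference to 0.24 with an adjusted p of 0.034. Foxo1 (NCBI gene 56458; chromosome 3, 52268337 to 52350109) was at 7.64, 7.36 and 7.85 FPKM in aged libraries, against 8.67, 8.33 and 8.16 FPKM in young. All aged values were below the young ones; ages did not overlap, in one direction or the other, in 43% of all tested genes. The log2 difference of -0.12 (interval -0.28 to 0.037, limma adjusted p = 0.234) did not pass, and with the length and GC correction it was -0.00094. The antisense gene Gm20402 holds 5.73% of the 100-base windows of Foxo1.

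Within the FoxO sum, Foxo4 held 47.3% ± 0.667 in aged and 43.8% ± 0.815 in young ventricle, and Foxo1 held 18.7% ± 1.32 in aged and 22.5% ± 1.13 in young. The ratio of Foxo4 to Foxo1 was 2.47, 2.78 and 2.36 in aged libraries, against 1.90, 1.88 and 2.06 in young (exact permutation p = 0.1, the smallest possible). Foxo6, a FoxO best known from brain, is added here although it is outside the rule for named genes and was chosen once its values were known: it had 1.74, 1.29 and 1.66 FPKM in aged libraries, against 3.63, 2.7 and 2.22 FPKM in young (limma adjusted p = 0.0232).

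Mstn (NCBI gene 17700; chromosome 1, 53061640 to 53068079) was below the 1 FPKM minimum for testing, at 0.18, 0.29 and 0.09 FPKM in aged libraries, against 0.04, 0 and 0.04 FPKM in young. By the steps of low values, at an assumed fragment length of 200 bases, these stand for about 5.2, 7.7 and 2 fragments in the aged and 1.1, 0 and 1.2 fragments in the young libraries. The aged values were all above the young, but with so few fragments no fold is given, and an exact two-sided permutation test gave p = 0.1, the smallest it can give. With no filter on low values limma gave a log2 difference of 0.21 with an adjusted p of 0.0951.

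Ordered by level, the aged ventricle had Trim54, Trim63 and Trim55 first, then Fbxo31, then Foxo4 and Fbxo32, whose libraries overlapped, then Foxo3, Foxo1, Fbxo30 and Mstn. In the young, Trim63 came before Trim54 and Trim55, followed by Fbxo32 and Fbxo31, which overlapped, and then by Foxo4, Foxo3, Foxo1, Fbxo30 and Mstn. By mean level Trim54 ranked 590 and Trim63 712 of the 11860 tested genes, whereas Fbxo30 lay at percentile 37.8.

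**Figure D3:**
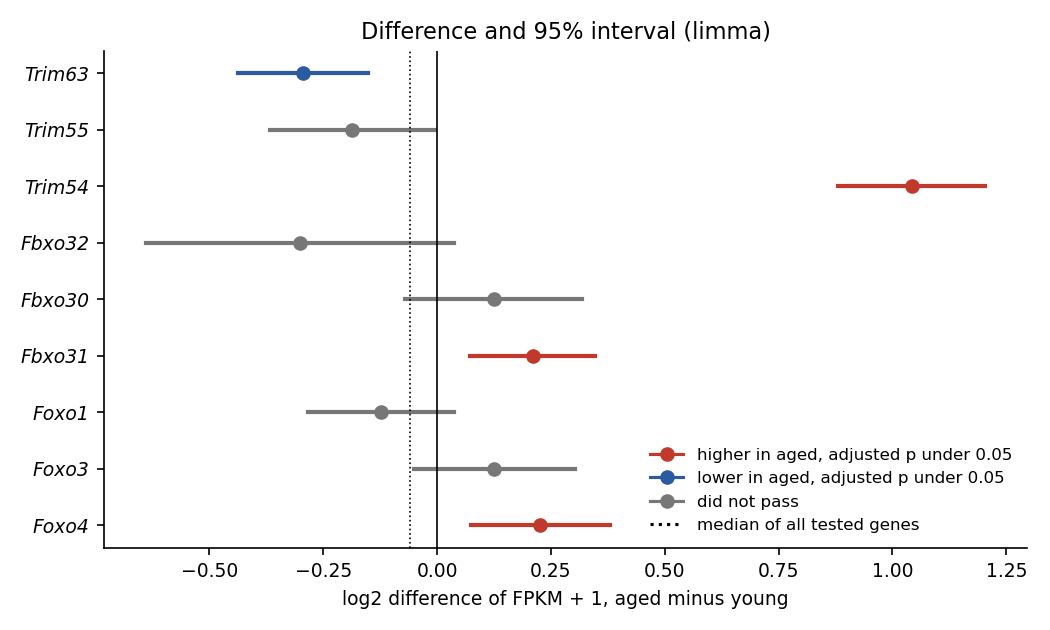
Log2 difference of FPKM + 1, aged minus young, of the 9 tested members with its 95% interval from limma; red marks members higher and blue lower at an adjusted p under 0.05, grey those that did not pass. Trim54 lies at 1.04, apart from the other members, which lie between -0.30 and 0.23; the dotted line is the median of all tested genes, -0.06.

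Markers of cell types moved beside these genes. Of 14 tested cardiomyocyte markers 4 were higher and 0 lower by limma (1 lower at an unadjusted p under 0.05), and the summed level of the 15 listed was 76638 to 81432 FPKM in aged libraries, against 65112 to 69553 in young, a ratio of means of 1.17. Of the markers of other cells, 10 of 14 for fibroblasts, 8 of 12 for mural cells, 7 of 14 for endothelium and 3 of 12 (25%) for macrophages were lower, beside 17.1% of all tested genes. Leaving out 1 library in turn gave 6 to 10 lower for fibroblasts and 7 to 8 for mural cells. It gave 5 to 8 lower for endothelium, 3 to 4 lower for macrophages and 3 to 4 higher for cardiomyocytes. Cd36, a fatty acid carrier in the endothelial list that cardiomyocytes also express, was higher (adjusted p = 0.00657). Fibroblast markers summed to 1241 to 1381 FPKM in aged libraries, against 1515 to 1699 in young. Mural markers summed to 410.4 to 456 FPKM in aged, against 1021 to 1095 in young, endothelial markers to 2132 to 2293 in aged, against 2125 to 2734 in young, and macrophage markers to 443 to 549 in aged, against 521 to 554 in young. No listed marker among the 18181 genes given a level was at 0 in all 6 libraries. Of the 10 adipocyte markers listed, 8 were among those genes. The part of these shifts in the members' differences was not tested. Set against 1000 FPKM of the summed cardiomyocyte markers, Trim54 was at 2.09, 2.02 and 2.33 in aged libraries, against 1.19, 1.26 and 1.18 in young. Trim63 was at 1.18, 1.21 and 1.10 in aged, against 1.66, 1.62 and 1.74 in young, and Trim55 at 0.594, 0.647 and 0.624 in aged, against 0.875, 0.736 and 0.886 in young. On that scale Fbxo31 and Foxo4 overlapped between ages, with ratios of means of 0.995 and 1.01, while Foxo1 did not overlap (ratio 0.776). The share of all genes without overlap on that scale was not computed. The marker sum rose mainly through Myl2, at 17061 FPKM in aged and 11761 in young on average, and Mb, at 16009 in aged and 11874 in young, whereas Myh6 and Actc1 did not pass and averaged less in aged (5855 and 10753 FPKM) than in young (6368 and 11890.2 FPKM). The fast skeletal myosin gene Myh4 was at 0.05, 0.07 and 0 FPKM in aged libraries, against 0, 0 and 0.05 in young, and Actn3, also of fast fibres, was at no more than 0.42 FPKM in any library. Skeletal markers summed to 254 to 665 FPKM in aged, against 443 to 832 FPKM in young libraries, most of it from Acta1, which heart also expresses; of 6 tested, 1 was higher and 2 lower. Of 2 tested adipocyte markers 1 was lower, and that list summed to 763 to 891 FPKM in aged, against 861 to 1256 FPKM in young libraries. The lower one is Fabp4, which is also in the endothelial list and makes up most of the sum, at 738 to 854 FPKM in aged and 838 to 1230 FPKM in young; Adipoq, the adipocyte hormone adiponectin, was at no more than 0.09 FPKM in any library.

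Other ligases that act in muscle were mostly not called. Of 25 other muscle ubiquitin ligases 3 were higher (12%, against 9.32% of all tested genes) and 2 lower (8%, against 17.1%), with a median log2 difference of 0.08 beside -0.06 for all genes. Klhl40, a KLHL protein that stabilises thin-filament proteins in skeletal muscle, was at 9.91, 9.58 and 10.6 FPKM in aged libraries, against 6.77, 6.74 and 6.24 FPKM in young (adjusted p = 0.0015). Fbxo40, a muscle F-box protein that targets IRS1, was at 79.9, 85.0 and 86.5 FPKM in aged libraries, against 72.4, 61.4 and 66.8 in young (0.0112). Both rose with no overlap between the ages, which 43% of all tested genes also lacked in one direction or the other. Trim24 (limma adjusted p = 0.0148) and the receptor-directed ligase Cbl (0.0476) fell. The lower count was 0 without aged replicate 1 or young replicate 2 or 3 (limma; 3 at an unadjusted p under 0.05 in each) and 1 without any other library, and the higher count was 6 after median-ratio scaling, 5 after quantile normalization and 1 with aged replicate 3 alone.

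In the list of SCF core subunits, E2 enzymes and ubiquitin genes, 3 of 25 tested (26 listed) were higher (12%) and 1 lower (4%), beside 9.32% and 17.1% of all tested genes. Skp1, the adaptor that binds F-box proteins, was at 123, 127 and 127 FPKM in aged libraries, against 102, 109 and 107 FPKM in young (limma adjusted p = 0.012). Ube2b, an E2 enzyme used in muscle proteolysis, rose 1.14-fold (0.0364). Cul7, a cullin scaffold, fell to 5.34 ± 0.536 FPKM in aged, against 8.37 ± 0.338 FPKM in young ventricle (0.00241). Without young replicate 3, or after quantile normalization, 1 gene was higher, and with aged replicate 3 alone 0 (limma; 3 at an unadjusted p under 0.05).

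Among 21 tested genes (22 listed) of substrates and partners of these ligases in muscle, 4 were higher (19.0%) and 0 lower by limma (7 higher and 1 lower at an unadjusted p under 0.05), beside 9.32% and 17.1% of all tested genes. Myh7, the slow myosin heavy chain, was at 47.2, 40.1 and 58.1 FPKM in aged libraries, against 21.2, 19.7 and 21.4 FPKM in young (log2 difference 1.17, adjusted p = 0.000289). Sqstm1, the autophagy receptor p62, was at 225, 209.95 and 254 FPKM in aged libraries, against 156, 179 and 163 FPKM in young (adjusted p = 0.00442). Myl2, the ventricular regulatory light chain, rose 1.45-fold (0.0014) and Tnni3, cardiac troponin I, 1.18-fold (0.0258); both are also among the cardiomyocyte markers that were higher. With TPM or quantile normalization 1 gene of this list was lower, and the higher count was 2 with quantile normalization or no filter and 7 after median-ratio scaling.

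FoxO target genes moved in both directions. Of 41 tested (42 listed), 4 were higher (9.76%) and 9 lower (21.95%), beside 9.32% and 17.1% of all tested genes, and their median log2 difference was -0.03. Bnip3, a mitophagy receptor, was at 126, 133 and 154 FPKM in aged libraries, against 78.9, 78.8 and 84.9 FPKM in young (log2 difference 0.75, adjusted p = 0.000374). Gabarapl1, an autophagosome protein, was at 64.2, 59.5 and 76.1 FPKM in aged libraries, against 34.9, 43.3 and 40.2 FPKM in young (0.74, adjusted p = 0.00164). Cat, which encodes catalase, rose 1.297-fold (adjusted p = 0.00288), and Rbl2, a pocket protein gene, averaged 13.01 ± 0.413 FPKM in aged and 10.85 ± 0.55 FPKM in young ventricle (0.0319). On the other side Cdkn1a, the cell cycle inhibitor p21, fell to 28.2 ± 3.96 FPKM in aged, against 51.7 ± 6.05 FPKM in young ventricle (log2 difference -0.85, adjusted p = 0.00112). Bcl6 (adjusted p = 0.00868), the pseudokinase Trib1 (0.00944) and the death-promoting gene Bcl2l11 (0.0255) also fell. The lower count was 4 without aged replicate 1, 3 without young replicate 2, 4 without young replicate 3 and 2 with aged replicate 3 alone, and 5 after quantile scaling. The balance turned to 6 higher and 5 lower after median-ratio scaling, and to 7 higher and 5 lower with the length and GC correction. With no filter on low values it was 5 higher and 4 lower, and without young replicate 2 it was 3 of each.

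Upstream of FoxO, the growth factor genes Igf1 and Igf2 were lower in aged ventricle. Of 28 genes of insulin, IGF1 and AKT signalling 7 were lower (25%, against 17.1% of all tested genes) and 2 higher (7.14%, against 9.32%), with a median log2 difference of -0.14. Igf2, a growth factor of fetal and early postnatal life, was at 9.5, 10.5 and 7.72 FPKM in aged libraries, against 36.6, 36.5 and 34.9 FPKM in young (log2 difference -1.86, adjusted p = 1.61e-05). Irs1, which couples the insulin and IGF1 receptors to PI3 kinase, was at 4.12, 4.24 and 4.11 FPKM in aged libraries, against 7.39, 7.61 and 6.59 FPKM in young (adjusted p = 0.000873). Igf1 was at 2.94, 2.71 and 2.81 FPKM in aged libraries, against 4.15, 4.89 and 4.18 FPKM in young (0.00607). The AKT-related kinase Sgk1 fell to 33.9 ± 1.13 FPKM in aged, against 44.0 ± 0.99 FPKM in young (0.00259). Mtor (1.24-fold, adjusted p = 0.0146) and its inhibitor Tsc2 (1.195-fold, 0.0376) rose. Lower genes numbered 4 without aged replicate 1 or young replicate 3 and 2 with aged replicate 3 alone, and higher ones 0 if young replicate 2 or 3 was left out (limma; 2 at an unadjusted p under 0.05 in each) and 1 if aged replicate 2 or 3 or young replicate 1 was.

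Of 23 tested FoxO partners and modifiers (24 listed) 8 were lower (34.8%) and 1 higher (4.35%), beside 17.1% and 9.32% of all tested genes, and the median log2 difference was -0.21. Ywhaq, which like the other Ywha genes encodes a 14-3-3 protein that can hold phosphorylated FoxO in the cytoplasm, was at 39.1, 38.3 and 41.0 FPKM in aged libraries, against 47.7, 54.9 and 57.9 FPKM in young (adjusted p = 0.00518). Ywhah averaged 60.5 ± 3.56 FPKM in aged and 76.5 ± 5.7 FPKM in young (0.0108), and Ywhab averaged 42.3 ± 1.8 FPKM in aged and 51.5 ± 3.71 FPKM in young (0.0197). Of the other Ywha genes in the list Ywhaz was lower too (0.0339), while Ywhae (0.0837) and Ywhag (0.737) did not pass. Nfkb1, an NF-kappa B subunit gene, was lower (0.0189). Sirt3, the mitochondrial deacetylase, was at 28.6, 30.5 and 29.5 FPKM in aged libraries, against 23.8, 25.1 and 24.0 FPKM in young (0.0113). Lower calls numbered 4 without aged replicate 1 or young replicate 3, 2 without aged replicate 2 or young replicate 2, and 0 with aged replicate 3 alone (limma; 9 at an unadjusted p under 0.05), and 3 after median-ratio scaling.

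In the myostatin and activin pathway 4 of 20 tested genes (27 listed) were higher (20%) and 3 lower (15%), beside 9.32% and 17.1% of all tested genes. Wfikkn2, a secreted antagonist of myostatin and GDF11, was at 2.69, 2.62 and 2.35 FPKM in aged libraries, against 1.08, 1.37 and 1.68 FPKM in young (limma adjusted p = 0.0103). The inhibitory SMAD genes Smad6 (1.43-fold, adjusted p = 0.0312) and Smad7 (1.32-fold, 0.0389) rose, as did the activin subunit Inhbb (1.71-fold, 0.0358). Fstl1, a follistatin-like glycoprotein made largely by mesenchymal cells, was at 28.4, 24.8 and 32.2 FPKM in aged libraries, against 59.2, 80.7 and 81.7 FPKM in young (log2 difference -1.34, adjusted p = 0.000274), and Bmp1, a protease that frees myostatin from its propeptide, fell to 13.6 ± 1.23 FPKM in aged, against 22.95 ± 1.63 FPKM in young (0.000681). The corepressor gene Ski fell with a log2 difference of -0.28 (0.0103). Each fit that left out a library gave 1 or 2 higher calls and 3 lower ones, and aged replicate 3 alone gave 0 higher (limma; 3 at an unadjusted p under 0.05) and 2 lower. Fibroblast and mural markers fell beside Fstl1 and Bmp1; their part in these differences was not tested.

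**Figure D4:**
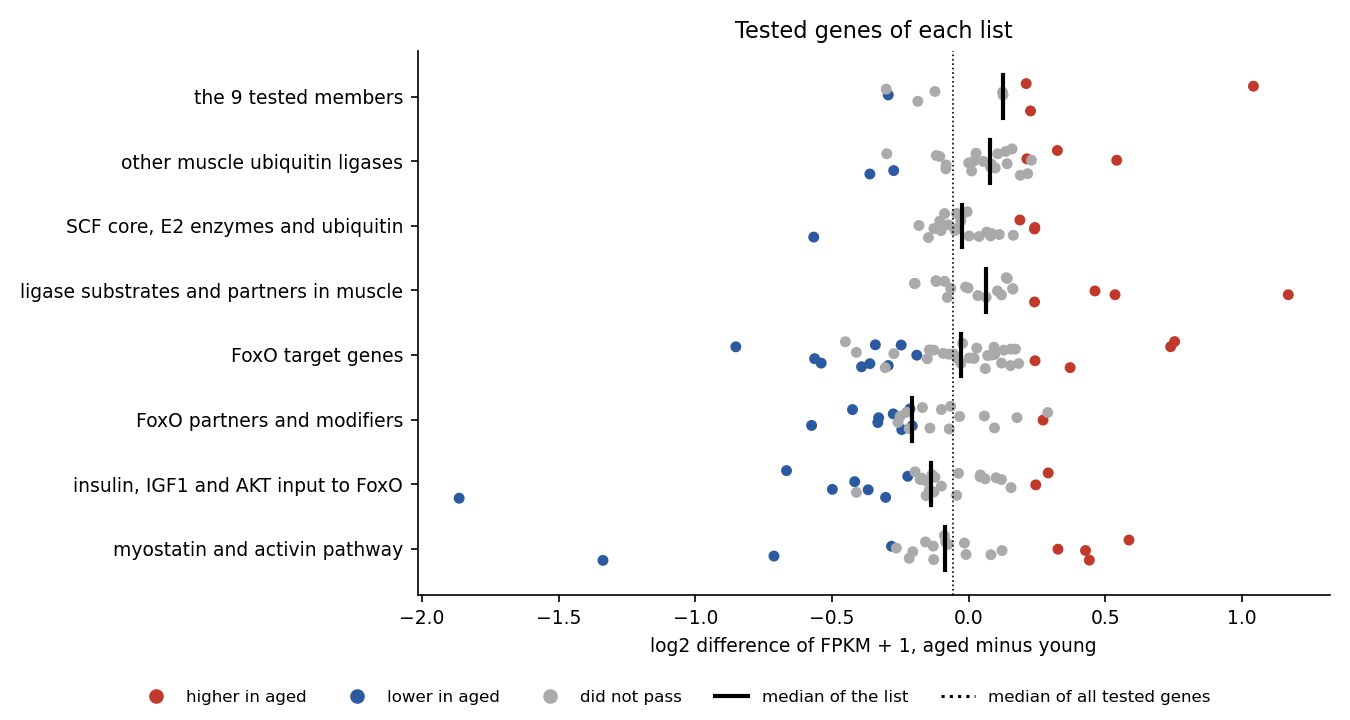
Log2 difference, aged minus young, of every tested gene in 8 lists; red points were higher and blue points lower at an adjusted p under 0.05 (limma), grey points did not pass, black bars are list medians and the dotted line is the median of all tested genes. FoxO targets spread on both sides, with Bnip3 at 0.75 and Cdkn1a at -0.85, and Igf2 at -1.86 is the leftmost point.

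Trim63 kept its direction and call in all 18, with adjusted p-values from 0.00543 to 0.0438, and Trim54 with 9.81e-06 to 0.00271. None of the 9 tested members changed sign in the 18 settings, and Foxo1 came nearest to 0; Mstn was fitted only with no filter on low values.

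**Figure D5:**
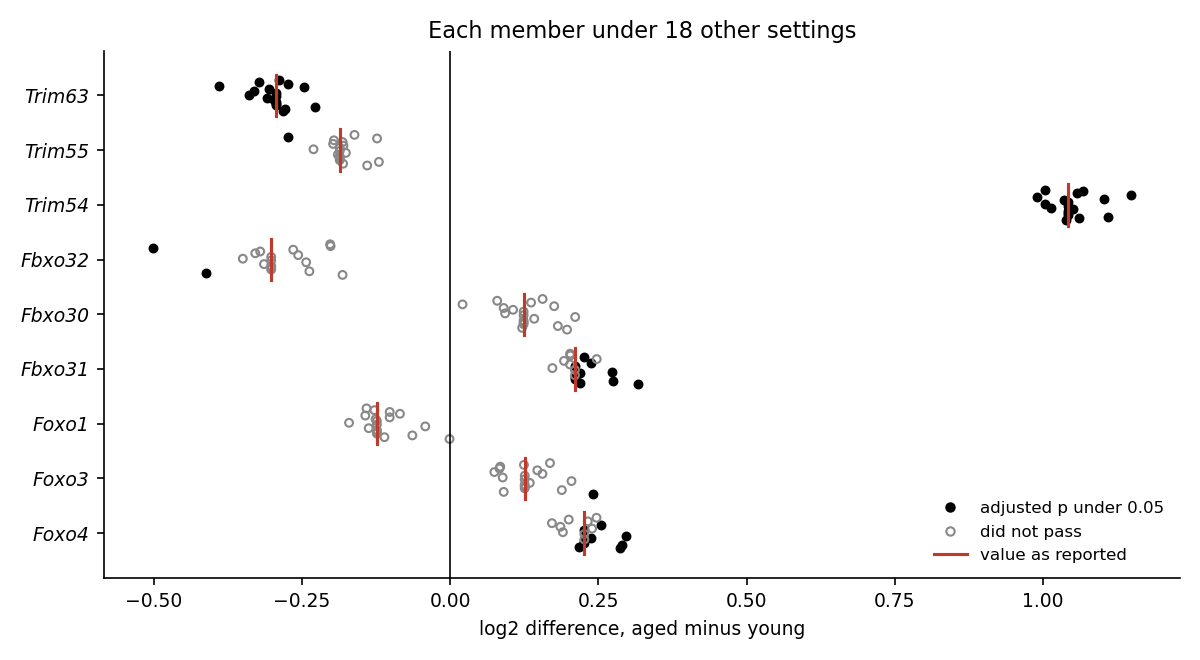
Log2 difference, aged minus young, of the 9 tested members under 18 other settings; filled points have an adjusted p under 0.05 and open points do not, and the red line is the value as reported. Points of Trim54 lie between 0.99 and 1.148 and are all filled, as are those of Trim63 between -0.39 and -0.23, whereas Fbxo31 and Foxo4 have points of both kinds.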

How the data were processed

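The authors deposited 1 table of FPKM, per the file headers, rounded to 2 decimals, with 1 column per sample. The submitters' processing notes name RSEM 1.2.12, HISAT2 2.0.4, DESeq2 1.4.5 and Bowtie2 2.2.5, without their roles, and mm10 as the build; their annotation and filters were not found there. Samples were grouped by their titles. Aged minus young was fitted with limma 3.58.1 in R 4.3.3 (lmFit, eBayes with a mean trend, two-sided) on log2(FPKM + 1), a scale that understates the change of low genes, for the 11860 genes averaging 1 FPKM or more, and p-values were adjusted over all of them by the Benjamini-Hochberg method. A gene was called at an adjusted p under 0.05. Folds are ratios of mean FPKM. The steps of the fit were tested on simulated data, with no such result given here for the single-fragment steps of low values. FPKM carry no read totals, so no counting interval is given. The authors' read assignment between overlapping genes is not known.

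The members, gene lists and tests were chosen with earlier results of these data known. Lists are described by counts and medians with no set test. Named genes are the members, up to 4 called genes per list and direction with the largest statistic, the 3 profiles nearest to Trim63 and Fbxo32, and Nppa, Myh6, Tnnt2 and Krt13 as checks of the tissue; Foxo6, Myh4, Actn3, Acta1, Mb, Actc1, Cd36, Fabp4, Adipoq, Ywhaz, Ywhae and Ywhag were added once their values were known. Some genes that the rule names are not reported here. Coordinates are from RefSeq on GRCm38.p6, the assembly called mm10, and transcripts from GENCODE vM21. Alternatives were rescaling to TPM, scaling by median ratios or quantiles, a pseudocount of 0.1, a minimum mean of 5 FPKM or none, a replicate block, library weights, robust empirical Bayes, a prior without trend, and leaving out each library or aged replicates 1 and 2 together; a length and GC correction (spline with 4 degrees of freedom) was added after the data had been seen. Tables were read in Python 3.11.15 (pandas 2.3.3) and plotted in matplotlib 3.10.9.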

Additional observations from a re-analysis of the deposited data

How the results depend on the processing

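Leaving out 1 library in turn gave 718 to 1020 higher and 1164 to 1958 lower genes of all tested (1105 and 2026 with all 6), with the fewest higher without young replicate 3 (718) and few lower without young replicate 2 (1242) or 3 (1164); among the members it gave 1 to 2 higher and 1 to 2 lower. Without aged replicates 1 and 2, 420 genes were higher and 552 lower, and 1 member was higher. The count of higher members, 3 as reported, was 1 on TPM, 1 with a prior variance without a trend and 1 with a replicate block; that of lower members, 1 as reported, was 2 with library quality weights, where Fbxo32 passed. The calls of Fbxo31 and Foxo4 ended in 8 and 9 of the 18 settings, while the directions of the 9 tested members held in all. The median log2 difference of all genes was -0.06 as deposited, -0.10 on TPM and -0.0048 with quantile normalization. The replicate numbers gave no sign of pairing the samples. Same-numbered libraries of both ages deviated with correlations of 0.0413, -0.0795 and 0.0378, and aged replicate 1 alone of the aged libraries correlated best with its own number. Each deviation is from a mean of 3 libraries, so these values cannot exclude a pairing. With the replicate block 1002 genes were higher and 1783 lower, and the adjusted p was 0.0722 for Fbxo31 and 0.0815 for Foxo4. The causes of these changes were not tested. Depth limits Mstn, which rests on a few fragments.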
